A study of Mus musculus with 2 samples.

Results

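Cytosolic ribosomal protein genes encode the protein components of the ribosomes that translate nuclear-encoded mRNA. Their transcripts were compared between thigh muscle of mice on a control diet and on calorie restriction (CR). Members were the genes of the deposited table whose symbol begins with Rpl or Rps followed by a digit, with Rplp for the acidic stalk proteins and Rpsa, leaving out the S6 kinase genes (Rps6k) and named pseudogenes. The rule found 53 of the 10543 genes with loci of their own. By role, 20 members encode proteins of the small subunit, 24 of the large subunit, 3 of the stalk, and 5 encode paralogs of a subunit protein (Rpl3l, Rpl7l1, Rpl22l1, Rpl36al and Rps27l). The remaining member, Rps19bp1, encodes a binding partner of the small subunit protein Rps19 and is no ribosomal protein. Rpsa, the laminin receptor of the small subunit, was not among the loci used here.

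Poly(A) RNA came from B6C3F1 mice aged 26 months, with 1 library from the control group and 1 from the CR group. CR mice ate 40% fewer calories than the controls for 25 months, on a diet enriched to keep protein, vitamins and minerals per body weight at about the level of the controls. The number of mice behind each library is not stated in the labels. As each diet has 1 library, differences carry no replicate check and were not tested. Levels are FPKM, fragments scaled by transcript length and library size, for the loci of build mm9. The read depth is unknown, and FPKM are compared only within this table. Over all loci they summed to 12758512 (control) and 13608849 (CR). These sums are high and not explained, so the absolute scale of the levels is uncertain. In each pair of values the control library comes first. The log2 ratio divides CR by control after 1 FPKM was added to both, and a fold is that ratio without the log, so that differences of weakly expressed genes are understated.

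A ribosome holds a small subunit, which reads the mRNA, and a large subunit, which joins the amino acids and carries the stalk that recruits translation factors. Each subunit protein is present in a ribosome at a fixed number of copies, mostly a lone copy, and the mRNAs of most of these proteins begin with a terminal oligopyrimidine (TOP) tract through which the kinase mTOR controls their translation. Skeletal muscle is known for a paralog of its own, Rpl3l, which takes the place of Rpl3 in ribosomes of mature striated muscle. Genes of this family have many processed pseudogenes, so that reads can match more than a single place in the genome.

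The ribosomal protein genes stood moderately higher in the CR library. The median log2 ratio over the 53 members was 0.40, a fold of 1.32, beside a median of -0.03 over all 10533 genes whose mean reached 1 FPKM. Of the members, 37 (69.8%) had a log2 ratio above 0, against 47.9% of all genes. At least 1.5-fold higher were 16 members (30.2%), against 16.4% of all genes, and at least 1.5-fold lower were 4 (7.55%), against 18.8%. At least 2-fold higher were 6 members, against 8.01% of all genes, 1 was at least 2-fold lower, against 10.7%, and 46 lay within 2-fold. Among the 4170 genes with a mean of 300 FPKM or more, which are nearer to the members in level, the shares were 50.4% above 0, 12.0% at least 1.5-fold higher, and 9.86% at least 1.5-fold lower. Past 2-fold lay 4.29% on the higher side and 2.93% on the lower side. All 53 passed the filter at 1 FPKM. Summed over the members, FPKM came to 116705 (control) and 151911 (CR), which was 0.915% and 1.12% of all FPKM in the table. The ratio of these sums was 1.30, beside 1.14 for the sums over all genes tested and 1.38 for the other genes with a coding sequence of up to 900 nt. In bulk tissue, a different number of cells of a type and a different amount of RNA per cell cannot be told apart.

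**Figure D1:**
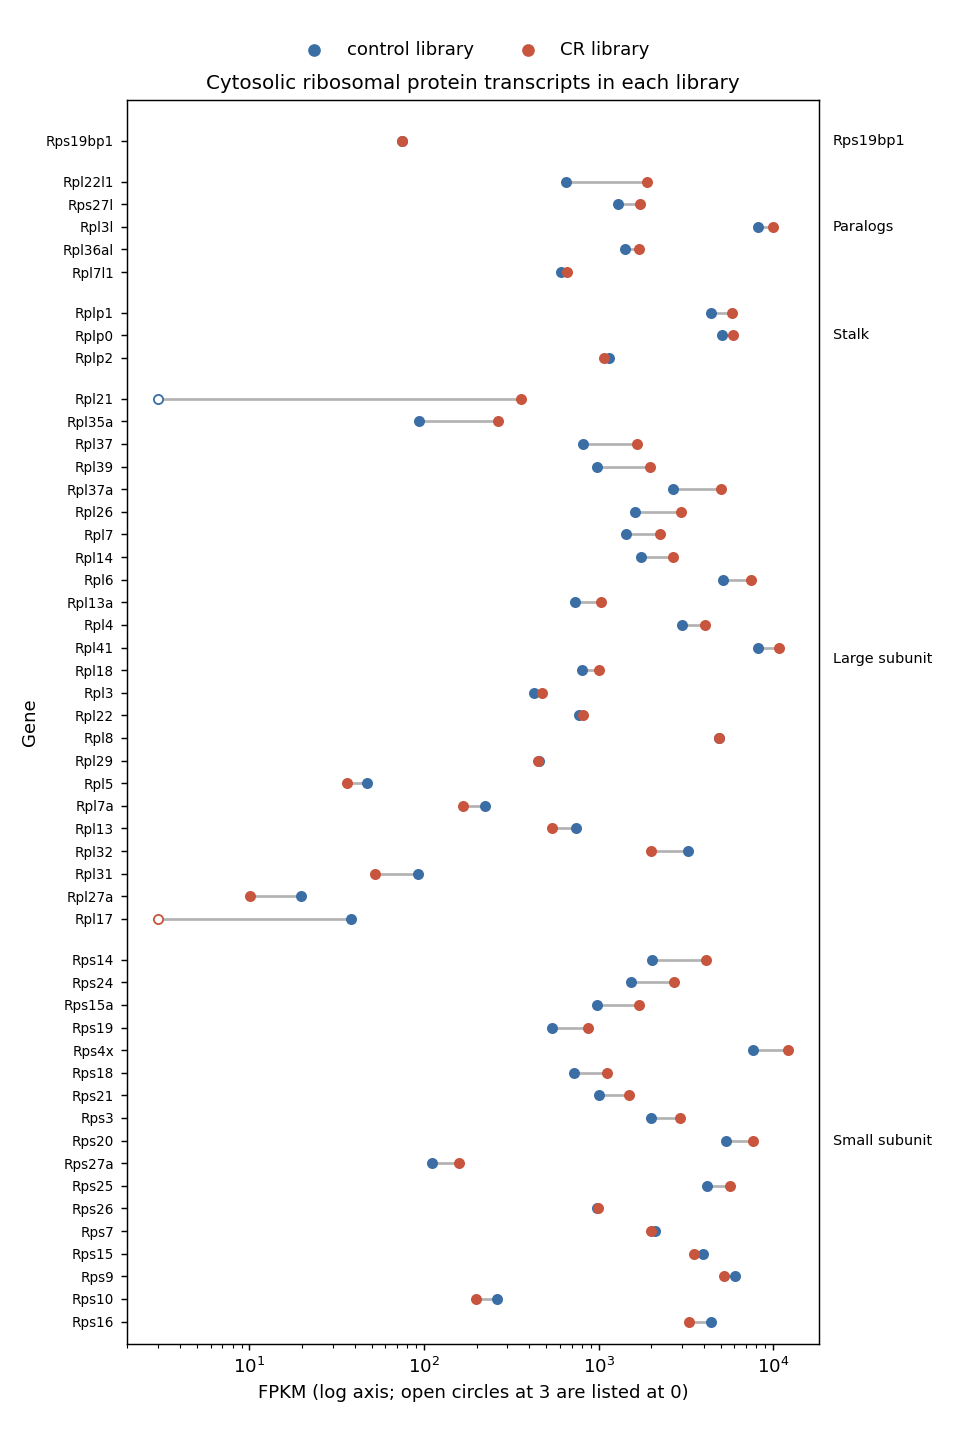
FPKM of 50 of the 53 ribosomal protein genes in the control library (blue) and the CR library (red) on a log axis, 1 point per library, grouped by role and ordered by log2 ratio within a role. Most red points lie to the right of the blue ones by less than 2-fold, and Rpl21 and Rpl17 are listed at 0 in 1 library.

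Ribosomal protein transcripts were abundant in both libraries but very unequal among themselves. A mean of at least 1000 FPKM was reached by 32 members (60.4%), against 8.49% of all genes tested, and 24 members were among the 500 most abundant genes. The median member stood at 1151 and 1736 FPKM, while the median gene stood at 223 and 224. The highest means belonged to Rps4x, the X-linked copy of the small subunit protein eS4 (7621 and 12078 FPKM), to Rpl41, the shortest protein of the family (8224 and 10856), and to Rpl3l (8209 and 9970). At the other end stood Rpl27a (19.7 and 10.1 FPKM), Rpl17 (38.1 and 0), Rpl5 (47.3 and 36.2) and Rpl31 (91.8 and 52.3), all parts of the large subunit. Above 0, the highest member of the control library exceeded the lowest by 417-fold on the FPKM scale, which already divides by length. Members that were high in one library were high in the other, with a Pearson correlation of log2 levels of 0.97 across the 51 members and 0.90 across the 9844 genes above 0 in both libraries, a description of genes within 1 pair of libraries.

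Among small subunit genes, 15 of 20 had a log2 ratio above 0, with a median of 0.51 (a fold of 1.43). The range was narrow, from -0.42 for Rps16 to 1.03 for Rps14. Rps14 (chromosome 18, 60906766 to 60938201), a protein near the decoding site whose human counterpart is lost in the 5q deletion syndrome, stood at 2011 and 4115 FPKM, a fold of 2.05. Its locus in the table spans 31436 bp, 7.96 times the Rps14 gene of RefSeq (3951 bp), so that the value can hold reads from beyond the gene. Among the 53 members it was the only locus over 2 times as long as its gene. Rps24 stood at 1541 and 2700 FPKM and Rps15a at 981 and 1711. Rps19, the protein most often mutated in Diamond-Blackfan anaemia, stood at 543 and 869, and Rps4x at 7621 and 12078, a fold of 1.58. Rps18 (724 and 1122 FPKM) and Rps21 (1008 and 1485) lay near 1.5-fold in the same direction. So did Rps3, which lines the mRNA entry channel (1989 and 2907 FPKM), and Rps20 (5330 and 7632).

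Rps27a, made as a fusion with ubiquitin, stood at 111 and 158 FPKM, and Rps25 at 4183 and 5627. Rps26 (981 and 993 FPKM) was nearly level. The 5 small subunit genes below 0 were Rps7 (2116 and 2003 FPKM), Rps15 (3952 and 3531), Rps9 (6045 and 5208), Rps10 (261 and 199) and Rps16 (4427 and 3301). None of the 20 was at least 1.5-fold lower in the CR library, against 18.8% of all genes. Rps16 was the farthest down, 1.34-fold lower.

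Large subunit genes were more spread out. Their median log2 ratio was 0.35 (a fold of 1.28), and 15 of 24 (62.5%) lay above 0, against 47.9% of all genes. At least 1.5-fold higher were 8 (33.3%), against 16.4% of all genes. At least 1.5-fold lower were 4 (16.7%), near the 18.8% of all genes and beside 13.1% of other genes with up to 900 nt. Rpl35a (chromosome 16, 33056539 to 33060274), another Diamond-Blackfan anaemia gene, stood at 93.1 and 266 FPKM, a fold of 2.84. Rpl37 (chromosome 15, 5066613 to 5069140) stood at 813 and 1651 FPKM, and Rpl39 (chromosome X, 34622515 to 34625207), a small protein of the peptide exit tunnel, at 979 and 1974. These folds, 2.03 and 2.02, and that of Rps14 lie just past 2. Rpl21 (chromosome 5, 147644466 to 147648608) was listed at 0 and 358 FPKM, and no fold is given, as a listed 0 can be a failed estimate. When the libraries were scaled to the same sum, leaving out the top 50 genes, the count at least 2-fold higher was 3 of the 53 members in place of 6.

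Next in order came Rpl37a (2682 and 5031 FPKM), Rpl26, known for binding the p53 mRNA (1624 and 2978), Rpl7 (1429 and 2240) and Rpl14 (1758 and 2683). Rpl6 stood at 5173 and 7442 FPKM, Rpl13a, which also acts in interferon-driven translational silencing, at 734 and 1033, Rpl4 at 3008 and 4055, Rpl41 at 8224 and 10856 and Rpl18 at 805 and 998. Rpl3 (427 and 476 FPKM), Rpl22 (774 and 815), Rpl8 (4891 and 4862) and Rpl29 (454 and 448) were nearly level between the libraries.

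Besides Rpl8 and Rpl29, 7 large subunit genes had a log2 ratio below 0. Rpl17 (chromosome 18, 75160131 to 75163035) was listed at 38.1 and 0 FPKM, and no fold is given. Rpl27a (19.7 and 10.1 FPKM) was 1.86-fold lower, Rpl31 (91.8 and 52.3) 1.74-fold lower and Rpl32 (chromosome 6, 115753654 to 115758771, with 3251 and 2002) 1.62-fold lower. Rpl13 (741 and 541 FPKM), Rpl7a (222 and 167) and Rpl5, which with Rpl11 and the 5S RNA restrains the p53 regulator Mdm2 (47.3 and 36.2), were 1.30-fold to 1.37-fold lower. Of these 7, Rpl32 was the most abundant, followed by Rpl13. The loci of Rpl5, Rpl7a, Rpl31 and Rpl32, like those of Rpl4 and Rps25, overlap another locus on the opposite strand. Since strand was not marked, their values are uncertain. The locus of Rps24 holds another locus on its own strand, listed at 0 in both libraries.

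Stalk genes differed little. Rplp0, the stalk base, stood at 5070 and 5906 FPKM, Rplp1 at 4407 and 5823 and Rplp2 at 1151 and 1080. Rplp1 and Rplp2 form the dimers that bind Rplp0, and their log2 ratios were 0.40 and -0.09.

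The paralogs all had log2 ratios above 0, from 0.12 to 1.55, beside 47.9% of all genes above 0. Rpl22l1 (chromosome 3, 28704433 to 28706337), the paralog of Rpl22, stood at 647 and 1893 FPKM, a fold of 2.92 and the highest of the members above 0 in both libraries. Rpl22, whose product is known to repress Rpl22l1, was nearly level, so the order of the pair turned over. Rpl22 was above Rpl22l1 in the control library (774 against 647 FPKM), and Rpl22l1 was 2.32 times Rpl22 in the CR library. Of the Rpl22l1 coding sequence, 73.9% of stretches of read length are shared with other genes, against 8.41% for Rpl22. The order of this pair is therefore uncertain. Rpl3l (chromosome 17, 24864723 to 24873094) had 19.2 times the FPKM of Rpl3 in the control library and 21.0 times in the CR library. Most of the Rpl3 coding sequence is shared with other genes, so this ratio is uncertain. The fold of Rpl3l between diets was 1.21. Rpl7 was 2.36 times Rpl7l1 (605 and 656 FPKM) in the control library and 3.41 times in the CR library. Rps27l (1291 and 1736 FPKM), a p53 target, and Rpl36al (1412 and 1711) have no partner among the loci used here. Rps19bp1 stood at 75.2 and 74.4 FPKM.

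A further 4 subunit genes lie in loci that the table merges with another symbol, so that they are no members. All 4 merged loci stood higher in the CR library by 1.73-fold to 1.94-fold: Rps3a with Rnu73b at 1172 and 2031 FPKM, Rps2 with Snora64 at 196 and 350, Rpl30 with Gm12191 at 496 and 962, and Rpl34 with Rpl34-ps1 at 860 and 1605. At least 1.5-fold higher were 16.4% of all genes and 22.6% of other genes with up to 900 nt. A merged locus has a joint value for its symbols, so the part of the subunit gene in it is uncertain. Of 77 subunit genes in a curated list, 47 were members, these 4 were in merged loci and 26 were not analysed here. Fau, which encodes a subunit protein fused to a ubiquitin-like protein and falls outside the symbol rule, stood at 280 and 291 FPKM.

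Promoters are shown for members near the highest and the lowest log2 ratios, and for the muscle paralog Rpl3l, so that start sites from both ends of the family's range can be compared. They come from RefSeq on GRCm38.p6, a later build than that of the table, which held 39 of the 53 members with 48 start sites. Taken were the 3 highest and 3 lowest genes above 0 in both libraries that had an entry here. Rps14 and Rpl32, whose ratios rank above that of Rpl37 and below that of Rpl13, had no entry and were passed over. The start site listed first was used (Rpl35a has 3 and Rpl3l has 2). Each run covers the 250 bases before the start and 20 from it, on the gene's strand, and capitals mark matches on either strand to the motifs searched, CCGGAAG (the core bound by ETS factors such as GABP), AAGATGG (the core of the YY1 site) and the pyrimidine stretch CTTTCC. A match describes the letters and is no binding site.
Rpl22l1, chr3:28805258-28805527 (+): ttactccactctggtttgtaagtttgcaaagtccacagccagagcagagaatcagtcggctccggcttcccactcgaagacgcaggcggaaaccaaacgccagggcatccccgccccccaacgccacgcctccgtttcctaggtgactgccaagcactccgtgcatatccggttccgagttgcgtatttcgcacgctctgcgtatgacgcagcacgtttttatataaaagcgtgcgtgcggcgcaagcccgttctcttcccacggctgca
Rpl35a, chr16:33056203-33056472 (+): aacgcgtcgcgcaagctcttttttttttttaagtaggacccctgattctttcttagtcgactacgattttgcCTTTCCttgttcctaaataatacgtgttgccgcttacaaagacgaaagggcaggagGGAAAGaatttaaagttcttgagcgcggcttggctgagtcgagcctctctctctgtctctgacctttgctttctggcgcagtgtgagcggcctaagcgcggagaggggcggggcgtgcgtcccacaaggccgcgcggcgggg
Rpl37, chr15:5116363-5116632 (+): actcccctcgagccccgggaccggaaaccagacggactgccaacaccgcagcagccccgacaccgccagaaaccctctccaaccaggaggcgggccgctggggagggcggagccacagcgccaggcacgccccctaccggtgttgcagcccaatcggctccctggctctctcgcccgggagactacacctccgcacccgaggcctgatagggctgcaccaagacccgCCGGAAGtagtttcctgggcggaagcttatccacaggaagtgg
Rpl27a, chr7:109518945-109519214 (+): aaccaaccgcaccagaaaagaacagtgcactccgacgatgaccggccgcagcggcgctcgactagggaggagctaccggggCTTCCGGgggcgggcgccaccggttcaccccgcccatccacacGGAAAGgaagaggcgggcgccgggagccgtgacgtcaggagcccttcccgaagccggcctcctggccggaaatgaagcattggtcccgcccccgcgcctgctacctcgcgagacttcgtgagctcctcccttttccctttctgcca
Rpl31, chr1:39367601-39367870 (+): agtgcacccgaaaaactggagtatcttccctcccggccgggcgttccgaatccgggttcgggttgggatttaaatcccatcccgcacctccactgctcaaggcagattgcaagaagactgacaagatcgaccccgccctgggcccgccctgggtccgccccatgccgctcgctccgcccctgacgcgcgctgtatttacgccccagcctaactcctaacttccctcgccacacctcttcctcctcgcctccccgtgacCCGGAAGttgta
Rpl13, chr8:123102100-123102369 (+): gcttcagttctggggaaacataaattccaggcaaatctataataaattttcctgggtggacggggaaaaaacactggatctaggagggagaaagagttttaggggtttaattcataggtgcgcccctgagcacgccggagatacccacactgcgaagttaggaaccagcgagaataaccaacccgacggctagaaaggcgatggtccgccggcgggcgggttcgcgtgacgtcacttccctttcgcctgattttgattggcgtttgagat
Rpl3l, chr17:24727576-24727845 (+): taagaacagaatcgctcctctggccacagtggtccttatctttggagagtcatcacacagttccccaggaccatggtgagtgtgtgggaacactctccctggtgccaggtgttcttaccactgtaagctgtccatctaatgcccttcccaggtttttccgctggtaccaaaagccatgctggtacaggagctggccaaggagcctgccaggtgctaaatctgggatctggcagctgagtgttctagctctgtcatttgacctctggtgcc
The first 3 genes are the highest with an entry, the next 3 the lowest with an entry. Among both sets, 2 of 3 windows held a match, while those of Rpl22l1, Rpl13 and Rpl3l held none. Over windows of 300 bases, CCGGAAG was found in 33.3% of the 48 member start sites and 8.86% of 32851 RefSeq start sites, and AAGATGG in 22.9% and 6.34%. CTTTCC was found in 24 of the 48 and in 26.6% of all start sites. Matches to different motifs overlapped in 1 member window. CCGGAAG was found at Rpl37 and Rpl39 among the higher members and at Rpl27a and Rpl31 among the lower ones.

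Coding length moved with the ratios across the whole table. Outside the family, median log2 ratios stepped down from 0.35 for 157 genes with a coding sequence of up to 300 nt to 0.23 for 378 genes of 301 to 450 nt, 0.12 for 580 of 451 to 600 nt, and -0.23 for 1316 genes over 3000 nt. Ribosomal proteins are short, with a median coding length of 453 nt against 1392 nt for the other genes, and 49 of 53 had at most 900 nt. Of the 2422 other genes with up to 900 nt, 59.3% had a log2 ratio above 0, 22.6% were at least 1.5-fold higher and 11.1% at least 2-fold higher, beside 69.8%, 30.2% and 6 of 53 for the members. At least 1.5-fold lower were 13.1% of these genes and at least 2-fold lower 7.93%, beside 7.55% and 1 of 53 for the members. Set against the median of other genes in their own length class, the members had a median of 0.20 in place of 0.40, and 34 of 53 lay above that class median. By class, the median of the 6 shortest members was 0.73 beside 0.35 for other genes, that of the 20 members of 301 to 450 nt 0.34 beside 0.23, that of the 11 members of 451 to 600 nt 0.09 beside 0.12, and that of the 12 members of 601 to 900 nt 0.46 beside 0.07. The part of length in the ratio of any member was not tested.

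**Figure D2:**
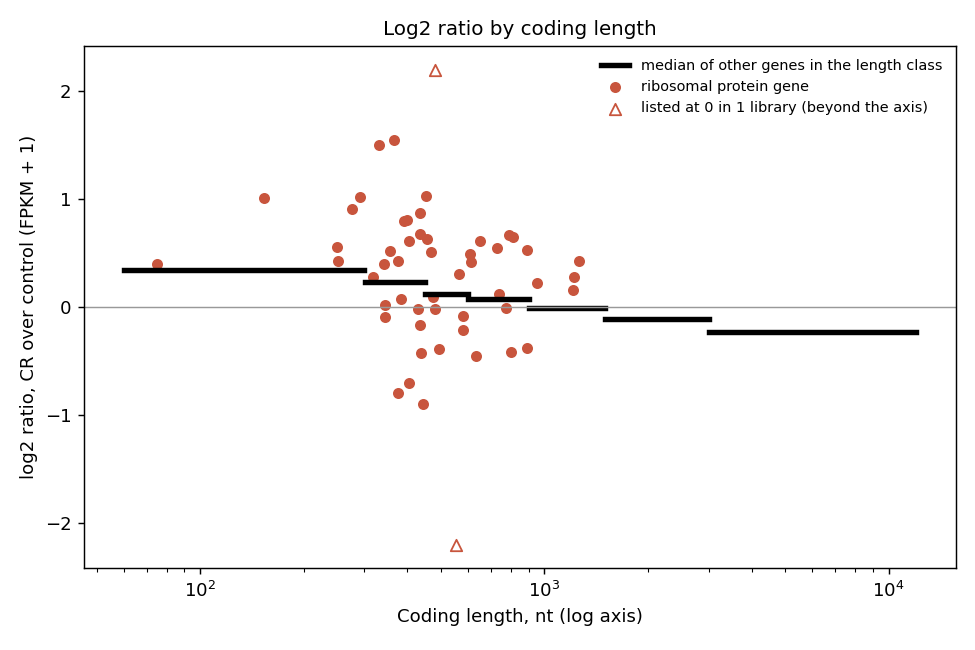
Log2 ratio of each ribosomal protein gene (red points; open triangles for Rpl21 and Rpl17, which lie beyond the axis) against its coding length in nt on a log axis, with black bars for the median of the other genes in each of 7 length classes. The bars step down from 0.35 to -0.23, and 34 of 53 members lie above the bar of their class.

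GC content moved with the ratios too. Other genes with a coding GC content of up to 48% had a median log2 ratio of 0.07, and those above 57% one of -0.16. For the members the medians were 0.66 (9 genes) and -0.01 (7 genes) in the same classes. Between these classes they did not step down in order, with 0.28 (13 genes, up to 51%), 0.52 (9 genes, up to 54%) and 0.28 (15 genes, up to 57%). Across the 53 members Spearman's rho of ratio and GC content was -0.34, as a description over genes of the same pair of libraries.

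Members that share sequence with other genes tended to have lower levels. Windows of 76 bases, the read length, were taken along each coding sequence and looked up in the transcripts of all other annotated genes, pseudogenes included. In the median member 68.9% of windows were found elsewhere. All windows were shared for 8 members, Rpl13, Rpl36al, Rpl31, Rpl17, Rpl5, Rpl27a, Rps27a and Rps16, whose mean FPKM had a median of 103 and whose log2 ratios had a median of -0.44, with 2 of 8 above 0. Of all genes, 47.9% lay above 0, and of the other genes with up to 900 nt 59.3%. No window was shared for 4 members, among them Rpl3l, Rps3 and Rps19bp1, and Rpl41 has too short a coding sequence. Across 52 members Spearman's rho between the shared share and the mean FPKM was -0.41, a description over genes measured in the same libraries. The 19 members with at most 50% shared windows had a median level of 2626 FPKM and a median log2 ratio of 0.22, with 13 above 0, and the 33 members with more had 987 FPKM and 0.51, with 23 above 0. Reads of shared windows cannot be assigned to a gene with certainty, so levels of the latter members are uncertain, among them Rpl22l1 (73.9% shared), Rpl35a (70.2%), Rpl37 (80.1%), Rpl21 (92.1%) and Rpl3 (93.3%).

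**Figure D3:**
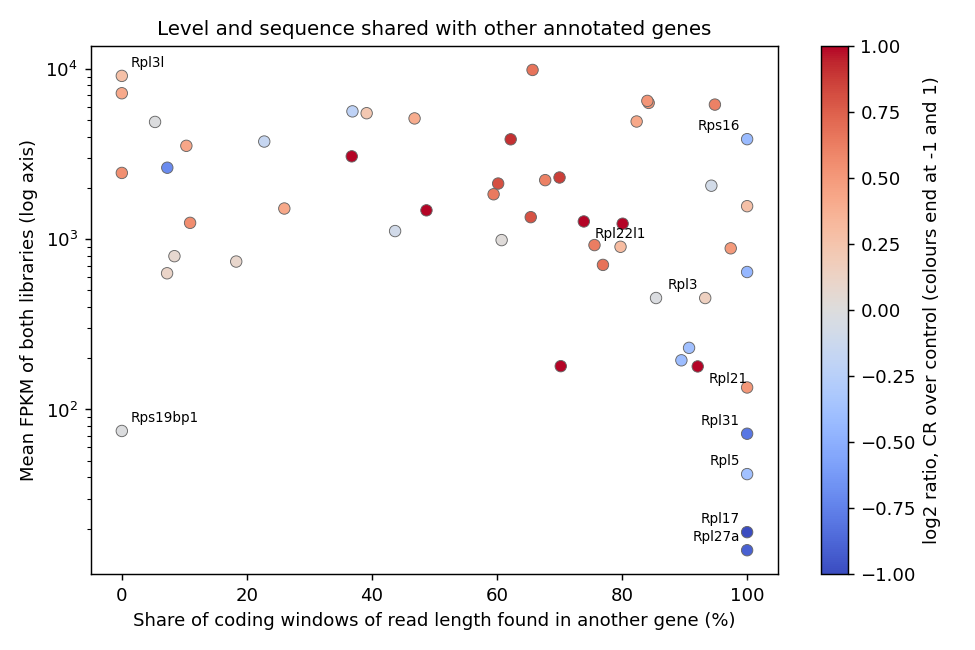
Mean FPKM of both libraries (log axis) against the share of coding windows of read length found in another gene, for 52 ribosomal protein genes, coloured by log2 ratio. The 4 members with the lowest means, Rpl27a, Rpl17, Rpl5 and Rpl31, have all windows shared, while Rps16 has all windows shared and a mean of 3864 FPKM.

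Other lists of the translation machinery had lower medians than the ribosomal protein genes. Of all genes, 47.9% had a log2 ratio above 0, 8.01% were at least 2-fold higher and 10.7% at least 2-fold lower. Mitochondrial ribosomal proteins, which build a separate ribosome, had a median log2 ratio of 0.21 over 72 genes, with 47 (65.3%) above 0 and 2 at least 2-fold higher, at a median coding length of 602 nt. At least 1.5-fold higher were 15 of them (20.8%) and at least 1.5-fold lower 0, beside 30.2% and 7.55% of the cytosolic members. For all genes these shares were 16.4% and 18.8%. The ratio of their summed FPKM was 1.34, beside 1.30 for the cytosolic members. Relative to their length class the cytosolic members had a median of 0.20. Other mRNAs known to carry a TOP tract had a median of -0.13 over 17 genes, 8 of them above 0 and none past 2-fold. Among these, the elongation factor Eef2 stood at 11201 and 7555 FPKM, the initiation factor Eif4b at 3180 and 1943, the histone chaperone Nap1l1 at 1733 and 928, and Gnb2l1, the Rack1 protein of the small subunit, at 4787 and 5726. The TOP list outside the family thus had a median below 0, and its coding sequences were longer, with a median of 966 nt.

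Ribosome assembly factors had a median log2 ratio of -0.18 over 68 measured genes of 72, with 24 (35.3%) above 0, against 47.9% of all genes. Past 2-fold lay 4 lower genes and 1 higher gene, beside 10.7% lower and 8.01% higher of all genes, at a median coding length of 1701 nt. The lower genes were Utp20 (427 and 88.1 FPKM) and Heatr1 (536 and 238), parts of the small subunit processome, the kinase Riok1 (291 and 137) and Wdr3 (598 and 291). The higher gene was Nmd3, the export adaptor of the large subunit (149 and 304). Npm1, the most abundant of the list, stood at 3434 and 3127. Particles that modify ribosomal RNA had a median of 0.12 over 7 genes, none past 2-fold, with the pseudouridylation protein Gar1 at 151 and 90.7 FPKM, its catalytic partner Dkc1 at 401 and 288 and Nop10 at 1121 and 1531. The RNA polymerase I list, the machinery that transcribes ribosomal RNA, had a median of -0.09 over 18 genes, 8 of them above 0. Its core subunit Polr1b stood at 371 and 171 FPKM, the promoter factor Taf1b at 80.8 and 147 and Polr1d at 784 and 889. Of the subunits it shares with other polymerases, Polr2l stood at 39.8 and 80.0 FPKM, and Polr2k was listed at 0 and 164. Kinases named for ribosomal protein S6 had a median of -0.32 over 8 genes, 2 of them above 0, at a median coding length of 2212 nt. Among them were Rps6ka5 at 304 and 136 FPKM, Rps6kb2 at 227 and 125, Rps6ka1 at 193 and 110, Rps6ka2, the most abundant, at 890 and 916, and Rps6kb1, the S6 kinase downstream of mTOR, at 580 and 643.

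**Figure D4:**
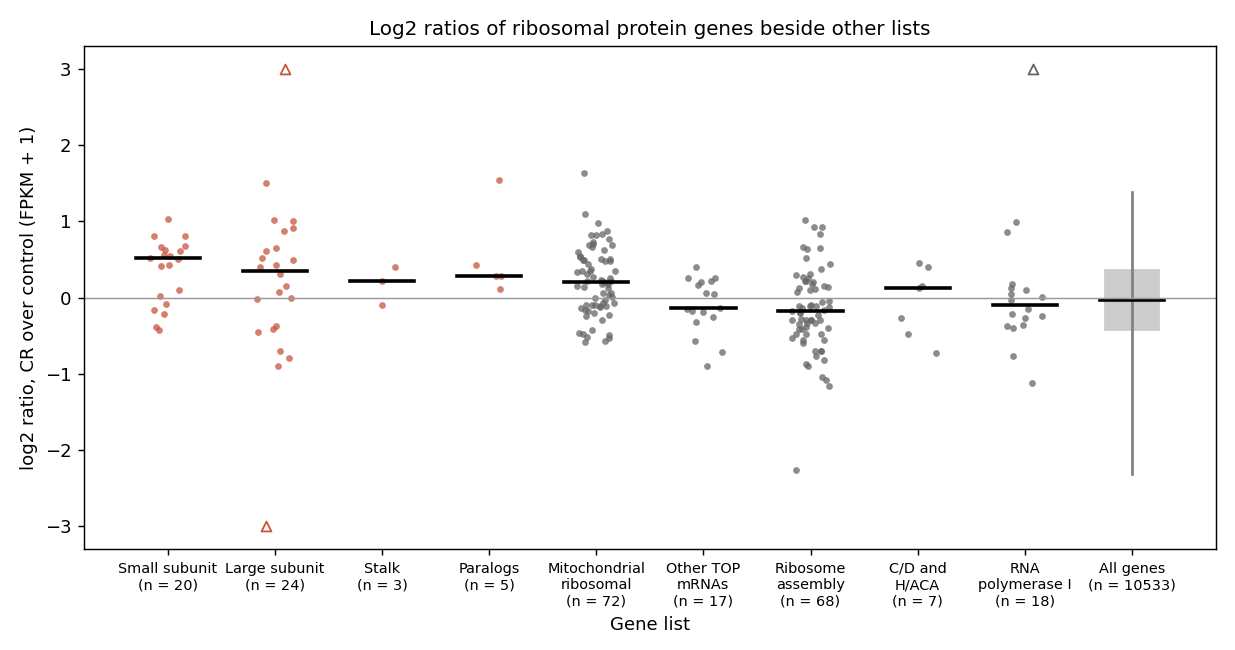
Log2 ratios of CR over control by list, 1 point per gene, with a black bar at the median and open triangles for genes listed at 0 in 1 library. Small and large subunit genes have medians of 0.51 and 0.35, above those of the TOP mRNAs outside the family (-0.13), assembly factors (-0.18) and all genes (-0.03, with the box from the 25th to the 75th percentile and the line from the 5th to the 95th).

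Libraries differed in markers of other cells as well. Muscle fibre markers were very high in both, with Pvalb the lowest at 20495 and 29963 FPKM and Acta1 the highest at 372424 and 354522. Of the 8 measured markers 6 had a log2 ratio above 0, against 47.9% of all genes, with a median of 0.54. Acta1 and Actn3 (38928 and 36744) lay below 0. White adipocyte markers summed to 4191 and 19309 FPKM, with 9 of 9 above 0 and a median of 2.13, and fibroblast markers to 3227 and 5701, with 6 of 6 above 0. Erythroid markers summed to 16189 and 48622 FPKM (Hba-a1 at 15925 and 48110), endothelial markers to 1509 and 2003 with 5 of 5 above 0, and tendon markers to 1691 and 999 with 1 of 5 above 0. Of 8 leukocyte markers 3 were measured, Cd68 at 99.7 and 66.9 FPKM, Csf1r at 79.2 and 102 and Cd14 at 0 and 28.0, and of 3 satellite cell markers Myod1 alone was measured, at 198 and 60.8. As ribosomal proteins are made in every cell type, these values stand beside the family's median of 0.40, and their part in it was not tested.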

How the data were processed

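Per the labels' protocols, poly(A) RNA from 10 µg of total RNA was fragmented and reverse transcribed from random primers for paired-end sequencing at 76 bp, with no strand-marking step named. TopHat 1.2.0, Cufflinks, Cuffdiff and mm9 are named in the submitters' processing notes, without options or annotation. The deposited unit is FPKM per locus. An added 1 in every value, inferred from the lowest deposited value of 1 and from digit counts, was subtracted. Over 6 significant digits were found in 98 of 101 control values from 1 to 2 but 0 of 77 from 2 to 3. Depth is unknown, so no counting interval is given, and a listed 0 can be a failed estimate.

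Loci with 1 symbol were used (10543 genes), loci of a symbol were summed, and log2((CR FPKM + 1)/(control FPKM + 1)) was taken for the 10533 genes whose mean reached 1 FPKM. No test across samples was possible. Lists are described by counts and medians. All members and, of other lists, the 3 genes with the largest ratios, the most abundant gene and genes listed at 0 may be named; further genes were named after their values were seen. Some genes that this takes are counted but not reported here by name. Members and lists were chosen with earlier results of these data known. Coding lengths, GC content and shared windows came from GENCODE M21 by symbol, found for 89.1% of genes, with no coordinates used. Alternatives changed the pseudocount, filter, scaling, locus choice and gene set. Python 3.11.15, numpy 2.4.6, pandas 2.3.3, scipy 1.17.1 and matplotlib 3.10.9 were used, and the ratio step was tested on simulated data.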

Additional observations from a re-analysis of the deposited data

How the results depend on the processing

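The median log2 ratio of the ribosomal protein genes was above 0 in all 14 alternatives, from 0.20 to 0.43. Some of these could not move it: all members pass the filter, and none has several loci to choose from. Pseudocounts of 0.1 and 5 FPKM left it at 0.40, as most members lie far above them. The median was 0.20 relative to the median gene of the coding length class and 0.22 in the 19 members with at most 50% shared windows, both added after the data were seen. The count at least 2-fold higher was 3 after rescaling to equal sums and 3 relative to the length class, where 3 were at least 2-fold lower, and among the 19 members it was 2 higher, 0 lower and 13 above 0. The count at least 2-fold lower was 0 with filters at 100 and 300 FPKM and without genes listed at 0, as each leaves out Rpl17. Over genes with up to 900 nt the median gene had 0.14. Centring changed the sign of 3 members (Rpl8, Rpl29 and Rps19bp1), rescaling that of 1 (Rps26) and the length class that of 3 (among them Rpl22 and Rps26). No paired analysis was possible because each group has 1 library, and no replicate could be left out. Unknown depth limits the values under 100 FPKM most, which are 5 members by their mean.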

Other observations

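Loci of 8 members overlap another locus of the table. Except for Rps24, the other locus lies on the opposite strand, and without strand the reads of such a pair cannot be told apart where they overlap. Inside Rpl32 lies an unnamed locus on the opposite strand (chromosome 6, 115756929 to 115757190) at 1914 and 2015 FPKM, and Cand2, at 782 and 441, overlaps Rpl32 over 3171 bp. Rpl4 holds an unnamed locus of 177 bp on the opposite strand (chromosome 9, 64022630 to 64022806) at 3734 and 3799 FPKM, close to the level of Rpl4 itself. Rpl5 overlaps Fam69a (261 and 491 FPKM), Rpl31 overlaps Tbc1d8 (277 and 220), Rpl7a overlaps Surf1 (136 and 168), and Rps25 overlaps Trappc4 (168 and 141) and Ccdc84 (94.5 and 45.7). An unnamed locus within Rps24, on the same strand, was listed at 0 in both libraries.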
